A study of Mus musculus with 4 samples.

Results

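The genes described here are 10 genes of transforming growth factor beta (TGF-beta) signalling in regulatory T (Treg) cells: the ligand Tgfb1, its docking protein Lrrc32, the receptors Tgfbr1 and Tgfbr2, the signal carriers Smad2, Smad3 and Smad4, and the inhibitors Smad7, Ski and Skil. They were taken by name, all 10 had a value, and they are 10 of 14193 genes listed. Treg cells are defined by the transcription factor Foxp3 and keep other immune cells in check. The data are 4 RNA-seq libraries of splenic Treg cells of the C57BL/6 strain, 2 of wild type (WT) and 2 in which Nsd2 was knocked out conditionally in Treg cells (cKO). At least 3 mice gave RNA to each pool. Nsd2 is a chromatin enzyme that places methyl groups on lysine 36 of histone H3. The age and sex of the mice, the Cre driver and the exons removed were not given in the sources used here.

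TGF-beta is made as a latent precursor, and Lrrc32, also called GARP, holds that precursor on the surface of activated Treg cells. The freed ligand binds Tgfbr2, a serine/threonine kinase, which recruits and phosphorylates Tgfbr1. Tgfbr1 then phosphorylates Smad2 and Smad3, which join Smad4 and enter the nucleus. In T cells this pathway is known for inducing Foxp3 and the integrin Itgae and for holding back effector functions. Smad7 blocks the receptor, while Ski and Skil (SnoN) repress Smad complexes on DNA. Smad7 and Skil are themselves textbook target genes of the pathway.

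The targeted gene had lower values in both cKO libraries. Nsd2, which the files list as Whsc1, was measured at 6.82 and 7.44 RPKM in WT replicates 1 and 2 against 3.46 and 4.27 RPKM in cKO replicates 1 and 2 (limma's unadjusted p = 0.00305, adjusted p = 0.9998). RPKM are reads scaled by the length of the transcript and the reads of the library, so levels can be roughly compared between genes. The scaling does not include base composition, with which values differed between replicates, as given below. The Treg markers Foxp3 (113 to 145 RPKM over the 4 libraries), Il2ra (104 to 146 RPKM), Ikzf2 (60.9 to 77.7 RPKM) and Cd4 (178 to 203 RPKM) were high in every library. Steps between low values gave 19082000 to 21186000 reads per library. At that depth the 10 genes rested on 1440 (Tgfbr1) to 7813 (Ski) reads in single libraries, and Tgfbr1 spanned 1440 to 2387.

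Of the 10 genes 1, Tgfbr2, the receptor that binds the ligand, had both cKO libraries below both WT libraries, as 9.06% of all genes did. The proximal promoters of Tgfbr2 and of its partner Tgfbr1 are shown to go with the values of the receptor pair. They are RefSeq sequences of GRCm38.p6, from 250 bases before to 50 bases after the annotated start, written 5′ to 3′ on the strand of the gene. Capitals mark CAGAC or its complement GTCTG, the short Smad box, and GGGCGG or CCGCCC, the GC box that Sp1 proteins bind. For Tgfbr1 the table lists a second start further into the gene, whose window is not printed and held 1 Smad box and 0 GC boxes.
Tgfbr2, chr9:116175314-116175613, minus strand: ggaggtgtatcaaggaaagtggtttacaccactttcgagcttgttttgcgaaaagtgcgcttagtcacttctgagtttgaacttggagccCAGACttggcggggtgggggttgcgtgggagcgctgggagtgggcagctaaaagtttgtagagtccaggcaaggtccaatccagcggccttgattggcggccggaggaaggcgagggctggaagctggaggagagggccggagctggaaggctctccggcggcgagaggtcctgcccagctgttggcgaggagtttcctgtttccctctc
Tgfbr1, chr4:47352972-47353271, plus strand: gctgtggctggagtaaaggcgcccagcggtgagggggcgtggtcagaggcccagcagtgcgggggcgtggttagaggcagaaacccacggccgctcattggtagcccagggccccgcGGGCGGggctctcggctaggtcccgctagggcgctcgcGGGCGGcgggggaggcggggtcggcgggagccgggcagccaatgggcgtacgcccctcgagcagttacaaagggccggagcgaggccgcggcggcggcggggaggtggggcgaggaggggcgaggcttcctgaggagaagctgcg

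The Tgfbr2 window held 1 Smad box and 0 GC boxes, and the Tgfbr1 window printed here held 0 Smad boxes and 2 GC boxes. Among all 32851 promoters of this length, 49.6% held a Smad box and 35.7% a GC box on either strand, so neither match is rare. Neither window held the Smad palindrome GTCTAGAC (0.213% of all promoters) or TATAAA on either strand (13.6%). G and C made up 59% of the Tgfbr2 window and 74.7% of the Tgfbr1 window. These matches describe letters and not sites.

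The ligand and its docking protein were the most abundant of the 10 genes. Over the 4 libraries Tgfb1 had a mean of 97.9 RPKM, which ranked 430 of 14193 genes, and Lrrc32 a mean of 93.3 RPKM, which ranked 461. Ski followed at 67.6 RPKM and Tgfbr2 at 60.5 RPKM. Smad7 was at 36.3 RPKM, Smad4 at 27.5 RPKM and Skil at 25.0 RPKM. The lowest were the receptor-activated Smads and the type I receptor, with Smad3 at 18.8 RPKM, Tgfbr1 at 16.1 RPKM and Smad2 at 13.5 RPKM (rank 4526).

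The mean of Tgfb1 was 7.23 times that of Smad2. Of the 9 pairs of neighbours in this order, 5 had ranges that overlapped over the 4 libraries. These were Tgfb1 and Lrrc32, Ski and Tgfbr2, Smad4 and Skil, Smad3 and Tgfbr1, and Tgfbr1 and Smad2. The steps from Lrrc32 to Ski, Tgfbr2 to Smad7, Smad7 to Smad4 and Skil to Smad3 were larger than the ranges. So the receptor that binds ligand, the corepressor Ski and the inhibitor Smad7 each lay above all 3 signal-carrying Smads in every library.

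**Figure D1:**
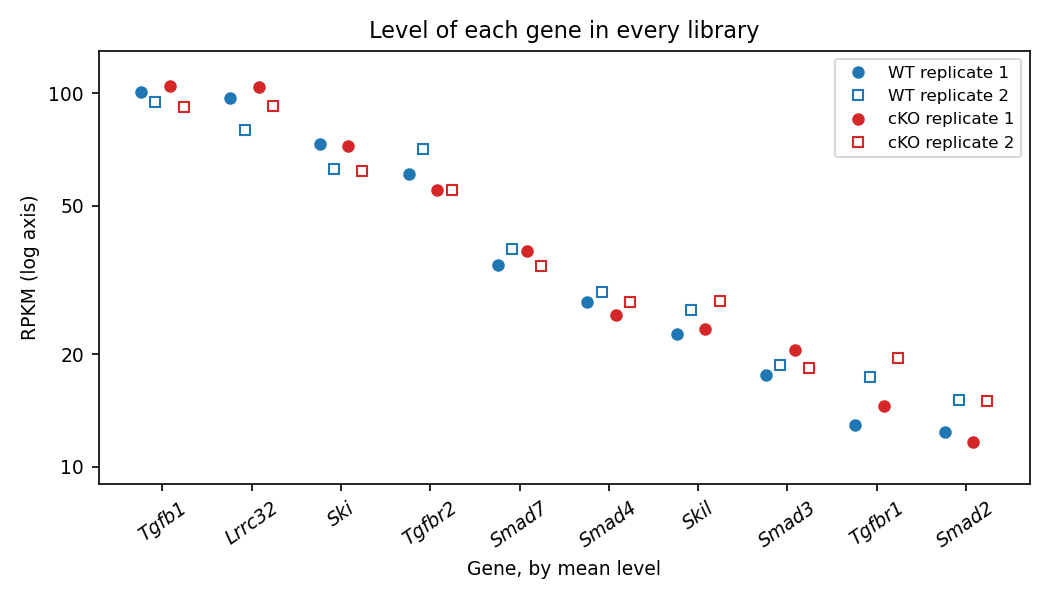
Level of each of the 10 genes in RPKM on a log axis, 1 point per library, with WT in blue, cKO in red, replicate 1 filled and replicate 2 open. Tgfb1 and Lrrc32 lie highest, Smad2 and Tgfbr1 lowest, and only for Tgfbr2 do both red points lie below both blue points.

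None of the 10 genes passed the test between genotypes. The test was limma on log2(RPKM + 1) across 10688 genes with Benjamini-Hochberg adjustment, and a log2 fold change below is cKO minus WT on that scale. Of the 10 genes, 0 had an adjusted p under 0.05 (limma's adjusted p = 0.9998 for each) and 0 had an unadjusted p under 0.05. Over all genes 0% were called higher and 0% lower, and 332 genes (3.11%) had an unadjusted p under 0.05. The cKO pair lay wholly below the WT pair for 1 of the 10 genes (9.06% of all genes) and wholly above it for 0 (17.4% of all genes). The median log2 fold change was -0.0013 for the 10 genes and 0.029 for all genes. When WT replicate 1 was omitted 66 genes were called, and when WT replicate 2 was omitted 38 were. Omitting cKO replicate 1 gave 21 and omitting cKO replicate 2 gave 60, with 0 of the 10 genes in each case. RNA from a pool of cells cannot tell fewer cells of a type from less RNA per cell.

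Tgfbr2 (GRCm38 chromosome 9, 116087695 to 116175363) was measured at 60.8 and 71.2 RPKM in the WT libraries against 55.1 and 55.1 RPKM in the cKO libraries. WT replicate 2 was highest, and both cKO libraries were below WT replicate 1. On average cKO reached 83.5% of WT (55.1 ± 0.0181 against 66.0 ± 7.32 RPKM, SD, n = 2 each). The log2 fold change was -0.25 with a standard error of 0.13 and a 95% interval of -0.58 to 0.080 (limma's unadjusted p = 0.112). The interval runs from a level 0.667 times that of WT to 1.06 times. Without WT replicate 2 the log2 fold change was -0.14, and without WT replicate 1 it was -0.36. The files held 2 rows for Tgfbr2, whose ratio was 1.006 to 1.011 in every library, so the second row is not a separate measurement.

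Tgfbr1, the kinase that phosphorylates Smad2 and Smad3 (chromosome 4, 47353222 to 47414926), had a higher cKO mean that lay inside the spread. It was measured at 12.9 and 17.4 RPKM in the WT libraries against 14.6 and 19.6 RPKM in the cKO libraries. The genotypes overlapped, and both libraries numbered 2 were higher than both numbered 1. The log2 fold change was 0.16 with a standard error of 0.20 and a 95% interval of -0.34 to 0.66, and it was -0.038 without WT replicate 1 and also without cKO replicate 2. Tgfbr1 varied most of the 10 genes, with a coefficient of variation of 18.3% over the 4 libraries, against 5.67% for Smad4.

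The ratio of the 2 receptors was higher in both WT libraries than in both cKO libraries. Tgfbr2 was 4.71 and 4.09 times Tgfbr1 in the WT libraries and 3.78 and 2.81 times in the cKO libraries. In each genotype the ratio was also higher in replicate 1 than in replicate 2. The means were 4.40 ± 0.432 in WT and 3.30 ± 0.680 in cKO (SD, n = 2 each). The ratios given here were chosen after the values of the genes had been seen, so this one is a description without a test. How often the ratio of any other gene pair lies apart between genotypes was not counted. Ski was 3.23 and 2.38 times Skil in WT and 3.10 and 2.23 times in cKO, and Smad3 was 1.43 and 1.24 times Smad2 in WT and 1.75 and 1.22 times in cKO. For both of these ratios the genotypes overlapped and the libraries numbered 1 were higher. The ratio of Lrrc32 to Tgfb1, given below, lay apart as well, with cKO higher. Smad7 was 1.15 and 1.13 times Smad2 plus Smad3 in WT and 1.18 and 1.03 times in cKO. Ski plus Skil was 1.66 and 1.41 times Smad2, Smad3 and Smad4 together in WT and 1.66 and 1.47 times in cKO. These last ratios overlapped between genotypes and are not drawn.

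**Figure D2:**
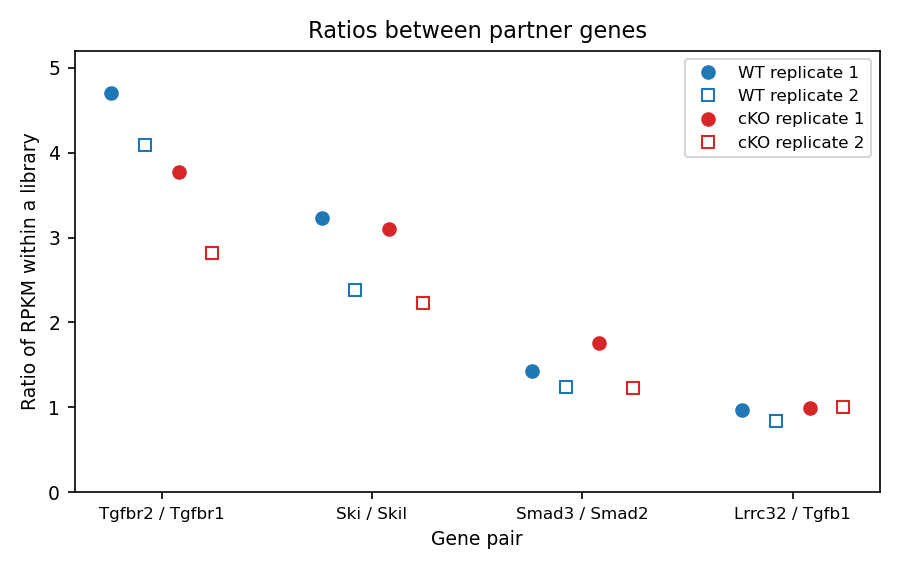
Ratio of RPKM between partner genes within each library on a linear axis from 0, with WT in blue, cKO in red, replicate 1 filled and replicate 2 open. The ratio of Tgfbr2 to Tgfbr1 is 4.71 and 4.09 in WT and 3.78 and 2.81 in cKO. The ratio of Lrrc32 to Tgfb1 also lies apart, at 0.965 and 0.843 in WT and 0.996 and 1.004 in cKO. The ratios of Ski to Skil and of Smad3 to Smad2 overlap between genotypes.

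The ligand did not differ beyond its spread. Tgfb1 (chromosome 7, 25687002 to 25705077) was measured at 101 and 94.6 RPKM in the WT libraries against 105 and 92.0 RPKM in the cKO libraries. The cKO values lay to either side of the WT values, and replicate 1 was higher in each genotype. The log2 fold change was 0.0083 with a 95% interval of -0.32 to 0.33, and its sign turned with median-of-ratios scaling (-0.039), upper-quartile scaling (-0.029), without WT replicate 2 (-0.036) and without cKO replicate 1 (-0.083). Median-of-ratios scaling also moved the share of all genes above 0 from 59.2% to 45.4%.

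Lrrc32 (chromosome 7, 98489305 to 98501831) was measured at 97.1 and 79.7 RPKM in the WT libraries against 104 and 92.4 RPKM in the cKO libraries. WT replicate 2 was lowest and cKO replicate 1 highest, and the genotypes overlapped. The means were 88.4 ± 12.3 and 98.2 ± 8.32 RPKM (SD, n = 2), and the log2 fold change was 0.16 with a standard error of 0.15 (95% interval -0.22 to 0.53). Without WT replicate 2 it was 0.015, and without WT replicate 1 it was 0.30. Within a library Lrrc32 was 0.965 and 0.843 times Tgfb1 in WT and 0.996 and 1.004 times in cKO.

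Platelets also carry Lrrc32 and TGF-beta. Of 12 platelet and megakaryocyte markers 4 had a row, and Pf4 and Ppbp were not among them. The summed level of these markers was 1.86 to 2.33 RPKM in WT and 1.67 to 1.97 RPKM in cKO, with Gp1ba highest at a mean of 1.04 RPKM. A marker without a row is not a measured 0, since any filter on the rows was not given. The part of platelets in the values of Lrrc32 and Tgfb1 was not tested.

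The signal-carrying Smads showed no common direction. Smad2 (chromosome 18, 76241090 to 76311748) was measured at 12.4 and 15.1 RPKM in the WT libraries against 11.7 and 15.0 RPKM in the cKO libraries. Replicate 2 was higher in both genotypes. Its log2 fold change was -0.040 with a 95% interval of -0.47 to 0.39, and it was 0.094 without WT replicate 2 and 0.13 without cKO replicate 1. Smad3 (chromosome 9, 63646766 to 63757994) was measured at 17.7 and 18.7 RPKM in the WT libraries against 20.5 and 18.4 RPKM in the cKO libraries. The highest value was that of cKO replicate 1, and the other 3 libraries lay close together. The log2 fold change of Smad3 was 0.091 with a 95% interval of -0.21 to 0.40, and 0.017 without cKO replicate 1.

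Smad4, the partner shared with the bone morphogenetic protein branch (chromosome 18, 73634790 to 73703791), was measured at 27.653 and 29.3 RPKM in the WT libraries against 25.5 and 27.655 RPKM in the cKO libraries. The genotypes overlapped only through the near-equal values of WT replicate 1 and cKO replicate 2. On average cKO reached 93.3% of WT, and the log2 fold change was -0.097 with a standard error of 0.12 (95% interval -0.40 to 0.21). Without WT replicate 2 or without cKO replicate 1 the difference was smaller, at -0.041 in the nearest case to 0 and -0.15 in the farthest over the 4 omissions.

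The inhibitors did not differ between genotypes beyond their spread. Smad7 (chromosome 18, 75367365 to 75395935) was measured at 34.6 and 38.3 RPKM in the WT libraries against 37.9 and 34.4 RPKM in the cKO libraries. WT was higher in replicate 2 and cKO in replicate 1, and their ranges nearly coincided. The log2 fold change was -0.011 with a 95% interval of -0.33 to 0.31, and it was 0.060 without WT replicate 2 and 0.057 without cKO replicate 2.

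Ski (chromosome 4, 155154075 to 155222535) was measured at 73.1 and 62.8 RPKM in the WT libraries against 72.5 and 61.8 RPKM in the cKO libraries. Its libraries fell into pairs by replicate number and not by genotype. The log2 fold change was -0.017 with a 95% interval of -0.39 to 0.35, and it was 0.090 without WT replicate 1 and 0.095 without cKO replicate 2. Skil (chromosome 3, 31095058 to 31122923) was measured at 22.6 and 26.3 RPKM in the WT libraries against 23.4 and 27.7 RPKM in the cKO libraries, paired by number in the opposite order. Its log2 fold change was 0.058 with a 95% interval of -0.31 to 0.42, and it was -0.047 without WT replicate 1 and -0.061 without cKO replicate 2. Skil had 2 rows whose ratio was 1.01 to 1.012, so they are 1 measurement.

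**Figure D3:**
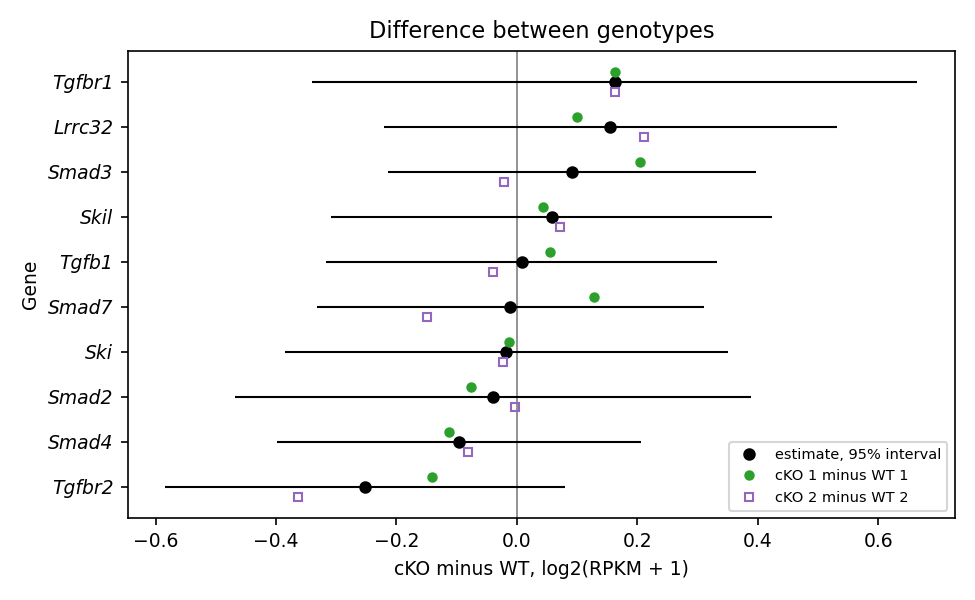
Difference between genotypes for each gene on the log2(RPKM + 1) scale, with the estimate and its 95% interval in black and the difference between the libraries numbered 1 (green) and numbered 2 (purple, open). Every interval includes 0, and Tgfbr2 lies farthest from it at -0.25.

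Tgfb1, Tgfbr1, Smad2, Ski, Skil and Lrrc32 differed more between replicate numbers than between genotypes, as means on the log2 scale. Tgfbr2 did not, at 0.11 by number against -0.25 by genotype, nor did Smad3, at -0.035 against 0.091. Smad7 was near 0 in both, and Smad4 differed about equally. In 7 of the 10 genes both libraries numbered 2 lay on the same side of both numbered 1, a share near the 60.9% of all genes. The libraries numbered 2 were higher for 4 genes, Tgfbr1, Smad2, Smad4 and Skil (32% of all genes), and lower for 3, Tgfb1, Ski and Lrrc32 (28.9%). The labels do not say what a number stands for.

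The difference between replicate numbers moved with the base composition of the transcripts. G and C made up 41.0% of the Tgfbr1 transcript, 41.0% of Skil, 44.9% of Smad2 and 49.4% of Smad4, the genes that were higher in number 2. They made up 55.6% of Ski, 57.1% of Lrrc32 and 62.5% of Tgfb1, the genes that were lower. Over the 10 genes the correlation of this percentage with the log2 difference of replicate 2 and replicate 1 was -0.722 in WT and -0.915 in cKO. Over 10477 genes it was -0.559 in WT and -0.565 in cKO, across genes that share the same libraries and are not independent. Among all genes under 45% the median difference was 0.24 in WT and 0.30 in cKO, and from 55% upward it was -0.21 and -0.23.

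Tgfbr2, at 54.6%, departed from that pattern in WT, where replicate 2 was 0.22 higher against a median of -0.082 for genes of 50 to 55%. In cKO it differed by 0.00066 against a median of -0.044. Smad7, at 56.9%, departed from it in WT as well, with replicate 2 higher by 0.14, and so did Smad3, at 53.1%, with replicate 2 higher by 0.079. In cKO replicate 2 was lower for both, at -0.14 for Smad7 and -0.15 for Smad3. After each library was corrected for base composition, an alternative chosen after seeing the data, the log2 fold change was -0.30 for Tgfbr2, 0.17 for Tgfbr1, 0.091 for Lrrc32 and -0.069 for Tgfb1. No gene of the 10 passed the test after that correction, and limma's adjusted p for Tgfbr2 was 0.625 there and 0.212 to 1 over all settings.

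**Figure D4:**
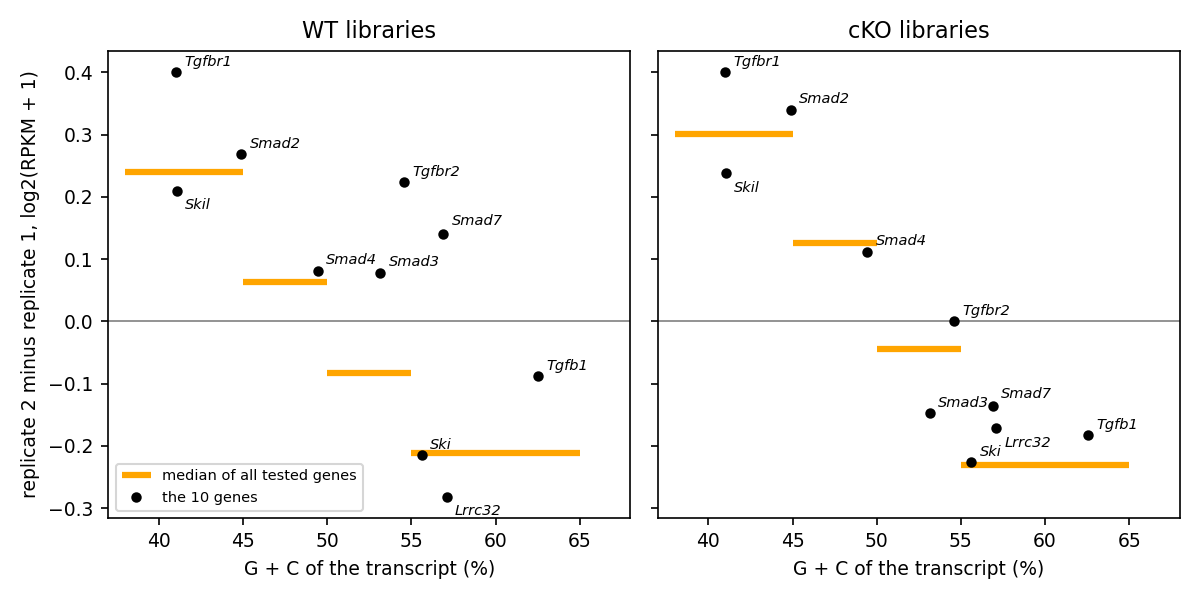
Difference of replicate 2 and replicate 1 on the log2(RPKM + 1) scale against the G and C percentage of the transcript, for the 10 genes (black points) and as the median of all tested genes in 4 classes of that percentage (orange bars, the outer classes drawn to the limits of 38 and 65). Tgfbr1, Skil and Smad2 lie above 0 at the left of both panels, and Ski, Lrrc32 and Tgfb1 lie below 0 at the right.

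The other genes of the pathway were counted from lists by role. The lists held 128 names, of which 110 genes had a row and 88 were tested. Of these 88 genes 0 passed limma's test, and 4 had an unadjusted p under 0.05, as 3.11% of all genes did. These 4 were Smad1, Itgae, Cdkn1a and Gzmb. Cdkn1a reached the filter of 1 RPKM only through its cKO libraries, with a mean of 0.758 RPKM in WT and 1.58 RPKM in cKO. Eomes, given below, also reached it only through its cKO libraries. The cKO pair lay wholly above the WT pair for 9 genes (10.2%, against 17.4% of all genes) and wholly below it for 14 (15.9%, against 9.06%). Their median log2 fold change was -0.018, and 34 of the 88 lay above 0, where 59.2% of all genes did. With median-of-ratios scaling 24 of the 88 lay above 0, beside 45.4% of all genes. Genes of those 23 that the naming rule did not give, Crebbp, Tgif2, Nedd4l, Id2 and P2rx7, were named after their values were seen.

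Among other ligands Tgfb2 and Tgfb3 were near 0, with means of 0.0481 and 0.230 RPKM, far below Tgfb1. Gdf11, a ligand that signals through Smad2 and Smad3, was measured at 4.41 and 2.97 RPKM in the WT libraries against 5.05 and 5.14 RPKM in the cKO libraries. Bmp7 was measured at 14.8 and 12.8 RPKM in the WT libraries against 16.4 and 13.0 RPKM in the cKO libraries, with overlapping genotypes.

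Of 7 tested genes of latency and activation 4 lay above 0 (59.2% of all genes), or 3 with either other scaling (45.4% and 48.3%). Of the 7 genes 1, Itgb8, had both cKO libraries below both WT libraries (9.06% of all genes). Itgb8, the integrin chain with which Treg cells free TGF-beta held by Lrrc32, was measured at 5.58 and 5.65 RPKM in the WT libraries against 5.09 and 4.89 RPKM in the cKO libraries (limma's unadjusted p = 0.316). Its partner chain Itgav was at a mean of 8.60 RPKM. The proprotein convertase Furin, which cleaves the TGF-beta precursor, averaged 23.7 ± 3.94 RPKM in WT against 25.9 ± 4.06 RPKM in cKO (SD, n = 2). Pcsk7, another convertase, was at 12.7 ± 2.01 and 13.7 ± 1.10 RPKM, and Itgb1 at 52.4 ± 4.53 and 54.7 ± 8.26 RPKM (SD, n = 2). Nrros, a relative of Lrrc32 known from myeloid cells, was at a mean of 23.5 RPKM, and the 4 latent TGF-beta binding proteins Ltbp1 to Ltbp4 had means of 0.526 RPKM or less.

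Of 6 tested other receptors and co-receptors, Bmpr2 was lower and Acvrl1 higher in both cKO libraries than in both WT libraries, as 9.06% and 17.4% of all genes were. On the log2 scale 1 of the 6 lay above 0, where 59.2% of all genes did. That count was 1 with median-of-ratios and upper-quartile scaling too, beside 45.4% and 48.3% of all genes. Bmpr2, the type II receptor for bone morphogenetic proteins, was measured at 4.08 and 4.33 RPKM in the WT libraries against 2.67 and 3.57 RPKM in the cKO libraries (limma's unadjusted p = 0.0834). Acvrl1, a type I receptor, was measured at 2.05 and 1.82 RPKM in the WT libraries against 2.58 and 2.44 RPKM in the cKO libraries. Acvr2a, an activin receptor, was at 1.60 ± 0.697 and 1.23 ± 0.472 RPKM, and Fkbp1a, which binds and restrains Tgfbr1, at 60.0 ± 0.648 and 58.4 ± 2.11 RPKM (SD, n = 2).

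A list of other Smads and adaptors held 6 tested genes, of which 1 lay above 0 on the log2 scale (59.2% of all genes), with a median of -0.092. That count was 1 with median-of-ratios and upper-quartile scaling too, beside 45.4% and 48.3% of all genes. The cKO pair lay wholly below the WT pair for 2 of the 6 (9.06% of all genes), Smad1 and Smad5, which carry bone morphogenetic protein signals. Smad9, the third Smad of that branch, was at a mean of 0.0560 RPKM and was not tested. Smad1 was measured at 5.70 and 5.77 RPKM in the WT libraries against 3.92 and 4.50 RPKM in the cKO libraries, or -0.37 ± 0.14 as log2 fold change and standard error (limma's unadjusted p = 0.0388, adjusted p = 0.9998). Smad5 was measured at 9.40 and 10.1 RPKM in the WT libraries against 9.05 and 9.04 RPKM in the cKO libraries, with a log2 fold change of -0.095 (limma's unadjusted p = 0.473). The endosomal adaptor Zfyve16 was at 4.32 ± 0.373 and 3.82 ± 0.894 RPKM, and Tgfbrap1 at 10.5 ± 0.932 and 9.81 ± 0.0388 RPKM (SD, n = 2).

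Of 20 ubiquitin and phosphatase regulators, 1 lay higher (Wwp2, 17.4% of all genes) and 1 lower (Nedd4l, 9.06%) in both cKO libraries. The list's median log2 fold change was -0.024, with 4 of 20 above 0 against 59.2% of all genes. With median-of-ratios scaling 1 of 20 lay above 0 (45.4% of all genes), and with upper-quartile scaling 2 (48.3%). The ubiquitin ligase Wwp2 averaged 17.3 ± 1.82 RPKM in WT against 19.4 ± 0.976 RPKM in cKO, and its relative Wwp1 at 5.33 ± 0.389 and 4.54 ± 1.28 RPKM (SD, n = 2). Smurf2, which works with Smad7 to mark the receptor for degradation, was at 14.9 ± 1.28 and 13.7 ± 1.19 RPKM (SD, n = 2). The deubiquitinase Usp9x, which acts on Smad4, was at 19.2 ± 4.56 and 16.9 ± 3.24 RPKM (SD, n = 2).

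Among 16 nuclear cofactors 5 lay lower in both cKO libraries (Runx1, Tgif1, Ep300, Crebbp and Tgif2), where 9.06% of all genes did, and 1 higher (Hdac1), where 17.4% did. The list's median log2 fold change was -0.044, with 5 of 16 above 0 (59.2% of all genes), and 0 of the 16 passed limma's test. With median-of-ratios scaling 3 of 16 lay above 0 (45.4% of all genes), and with upper-quartile scaling 4 (48.3%). The acetyltransferase Ep300, a coactivator of Smads, was measured at 27.6 and 30.2 RPKM in the WT libraries against 24.8 and 26.8 RPKM in the cKO libraries. Its relative Crebbp was measured at 29.8 and 27.6 RPKM in the WT libraries against 27.1 and 24.01 RPKM in the cKO libraries. Runx1, a partner of Foxp3 and of Smads, was at 20.8 ± 0.721 and 17.8 ± 1.35 RPKM, and the Smad corepressor Tgif1 at 18.1 ± 0.197 and 15.8 ± 1.93 RPKM (SD, n = 2). The deacetylase Hdac1 was at 66.1 ± 0.732 and 76.0 ± 2.76 RPKM (SD, n = 2), and limma's unadjusted p was 0.147.

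In the branch that does not use Smads, 10 genes were tested, 6 lay above 0 (59.2% of all genes) and the median log2 fold change was 0.045. With median-of-ratios scaling 5 lay above 0 (45.4% of all genes), and with upper-quartile scaling 6 (48.3%). Tab1, which activates the kinase Map3k7, was measured at 6.34 and 5.47 RPKM in the WT libraries against 7.02 and 7.20 RPKM in the cKO libraries. Pard6a, a polarity protein, was measured at 3.06 and 3.03 RPKM in the WT libraries against 2.78 and 2.69 RPKM in the cKO libraries. The ubiquitin ligase Traf6 was at 15.6 ± 1.24 and 13.9 ± 1.72 RPKM, and Daxx at 34.7 ± 4.85 and 36.6 ± 3.65 RPKM (SD, n = 2).

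Of 13 tested genes known to be raised by TGF-beta in T cells, 3 had a log2 fold change above 0 and 10 below it, where 59.2% of all genes lay above 0, and 0 passed limma's test. The split was 3 and 10 with median-of-ratios and upper-quartile scaling too, and the median was -0.054. Those 3 (Itgae, Cdkn1a and Cd101) lay higher in both cKO libraries (17.4% of all genes), and 3 others (Tgif1, Id2 and P2rx7) lay lower (9.06%). Itgae, the integrin chain CD103, was measured at 17.7 and 14.8 RPKM in the WT libraries against 28.8 and 25.4 RPKM in the cKO libraries. Its log2 fold change was 0.70 with a standard error of 0.14 (limma's unadjusted p = 0.00307, adjusted p = 0.9998). The cell cycle inhibitor Cdkn1a was measured at 0.751 and 0.766 RPKM in the WT libraries against 1.91 and 1.26 RPKM in the cKO libraries. It was tested only because its cKO values lifted its mean over the filter of 1 RPKM. With WT values under the filter, its place above 0 was fixed by passing it. The surface protein Cd101 was measured at 8.99 and 8.58 RPKM in the WT libraries against 10.9 and 11.1 RPKM in the cKO libraries. Pmepa1 and Ldlrad4, feedback inhibitors that TGF-beta induces, had overlapping genotypes, with Pmepa1 between 6.12 and 7.41 RPKM and Ldlrad4 between 18.1 and 21.1 RPKM over the 4 libraries. Smad7 and Skil, described above, overlapped as well.

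Of 11 tested genes known to be lowered by TGF-beta in T cells, 8 had a log2 fold change above 0 and 3 below it. Among all genes 59.2% lay above 0. Eomes, named after its values were seen, was 1 of the 8. It was measured at 0.925 and 1.03 RPKM in the WT libraries against 0.995 and 1.12 RPKM in the cKO libraries. Its WT libraries averaged under the filter of 1 RPKM, so its place above 0 was fixed by passing it. Of the 11 genes 0 passed limma's test. With median-of-ratios or upper-quartile scaling 5 lay above 0 and 6 below, beside 45.4% and 48.3% of all genes above 0. Gzmb lay higher (17.4% of all genes) and Il2rb lower (9.06%) in both cKO libraries, 1 gene of 11 in each direction. The median was 0.028 beside 0.029 over all genes. The granule protease Gzmb was measured at 4.44 and 4.31 RPKM in the WT libraries against 6.71 and 6.60 RPKM in the cKO libraries (limma's unadjusted p = 0.00846, adjusted p = 0.9998). Il2rb, a chain of the interleukin 2 receptor, was measured at 351 and 334 RPKM in the WT libraries against 287 and 290 RPKM in the cKO libraries. The pore-forming protein Prf1 was at 4.96 ± 1.19 and 3.95 ± 0.400 RPKM, and the receptor Klrg1 at 8.22 ± 2.54 and 10.5 ± 3.07 RPKM (SD, n = 2).

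**Figure D5:**
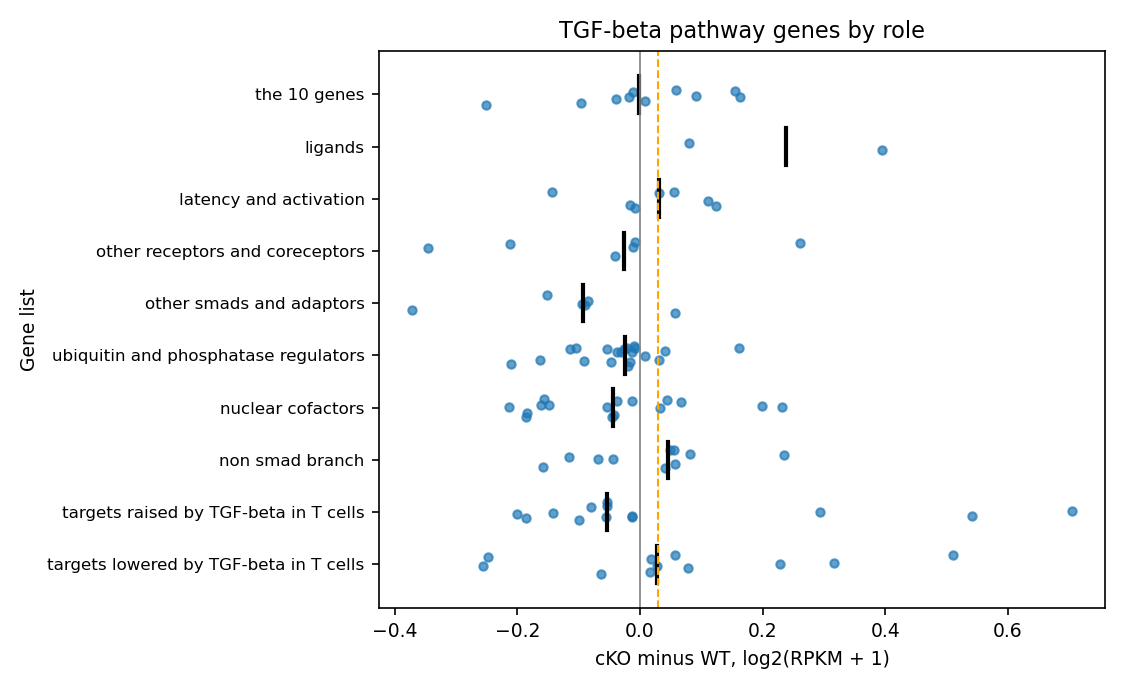
Log2 fold change (cKO minus WT, log2(RPKM + 1)) of each tested gene, 1 point per gene, by list, with the list's median as a black bar and the median of all tested genes (0.029) as a dashed orange line. Itgae at 0.70, Cdkn1a and Gzmb lie farthest to the right.

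Markers of other cell types that carry TGF-beta or its receptors varied between libraries. The 14 macrophage and dendritic cell markers summed to 58.7 and 62.1 RPKM in WT and to 79.5 and 55.2 RPKM in cKO, with Cst3 (mean 43.6 RPKM) the largest. Cst3 was at 41.5 to 45.6 RPKM in every library, while 9 of the 14 were highest in cKO replicate 1. C1qa, a complement gene of macrophages named after its values were seen, reached 6.06 RPKM in cKO replicate 1 against 1.39 to 2.27 RPKM in the other 3 libraries. The 10 B cell markers with a row summed to 330.3 and 237.7 RPKM in WT and to 315.1 and 288.0 RPKM in cKO, most of it Ighm (mean 252 RPKM). Of these 10 markers 3 were highest in cKO replicate 1. The 7 erythroid markers with a row summed to 25.2 and 11.8 RPKM in WT and to 44.1 and 7.76 RPKM in cKO, led by Hba-a1 (mean 8.62 RPKM). Of these 7 markers 6 were highest in cKO replicate 1. The share of all genes that were highest in cKO replicate 1 was not counted. The 9 CD8 T and NK cell markers with a row summed to 27.5 to 36.6 RPKM over the libraries, led by Nkg7 (11.2 RPKM). The 5 stroma and endothelium markers with a row summed to 38.6 to 45.1 RPKM, nearly all of it Pecam1 (42.1 RPKM). The macrophage, B cell and erythroid sums were higher in cKO replicate 1 than in cKO replicate 2, as were Lrrc32, Tgfb1, Ski, Smad3 and Smad7. Tgfbr1, Tgfbr2, Smad2, Smad4 and Skil were not. The order of the B cell sum in cKO rested on Ighm, at 271 RPKM in replicate 1 and 243 RPKM in replicate 2. Cd74, the next largest and named after its values were seen, was at 29.6 and 30.7 RPKM. The other B cell markers lay in both orders. In WT the B cell and erythroid sums, Lrrc32, Tgfb1 and Ski were higher in replicate 1. The macrophage sum and the other genes described here were higher in WT replicate 2. The part of other cell types in these values was not tested.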

How the data were processed

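RNA-seq was measured in 4 libraries, 2 WT and 2 cKO, grouped and numbered by the labels. The authors deposited RPKM values for 19291 transcript rows per library; the unit was read from the values. The submitters' processing notes name HISAT2, DESeq2 and mm10 without version or role. Counting, the handling of strand and overlapping genes, and any filter were not given in the sources used here. Rows were matched to genes by accession (16720) or name (1402) with RefSeq GRCm38.p6, and 1169 rows without a gene name (10.9% of the RPKM) were left out. The row of highest mean stood for a gene. Testing covered the 10688 genes whose mean reached 1 RPKM. Limma 3.58.1 (under R 4.3.3) was fitted to log2(RPKM + 1) with genotype alone, using trended, robust moderation and two-sided p-values adjusted by Benjamini-Hochberg (threshold 0.05). This scale understates fold changes of low genes. The labels do not say whether the 2 pools of a group came from different mice, so p-values reflect only how these pools differ, and part of that may be technical. Depth came from steps of whole reads in low values with GENCODE M21 lengths, as the best of a grid of depths. At the chosen depth 65.9% to 68.5% lay within 0.1 of a whole read. The best other depth gave 33.5% to 39.1%, and 20% is the share by chance at a depth not searched for. The same transcripts gave base composition. Marker and pathway lists were written from general knowledge, and the genes and lists were chosen with earlier results of these data known. Named genes were the 10 genes, Nsd2, Foxp3, Il2ra, Ikzf2, Cd4, up to 4 tested genes of lowest p from each pathway list, and the highest marker of each list (Cd3e, mean 256 RPKM, for Treg cells, whose 9 markers summed to 1350 to 1472 RPKM). No correlation between genes was computed over 4 libraries, and shared orders of genes and marker sums were only listed. The fit was run on simulated data with independent noise in each library. Libraries of the same number deviated together here, so that run does not show how often the test errs in these data. Python 3.11.15, pandas 2.3.3 and matplotlib 3.10.9 were used for tables and figures.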

Additional observations from a re-analysis of the deposited data

How the results depend on the processing

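The count of 0 called among the 10 genes held in every setting run: pseudocounts of 0.1 and 0.5, no filter, a filter at 4 RPKM, 2 other scalings, the sum of distinct rows, limma without trend and robust moderation, the block, base composition correction and each left-out library. The count over all genes was 0 except for 1 with the replicate block, 2 with the replicate block and base composition correction together, and 21 to 66 with 1 library left out. Samples of the same number deviated together (correlation of deviations 0.51 over 10688 genes), but the labels do not say that a number marks a pairing. With the replicate block 1638 of 10688 genes had an unadjusted p under 0.05, against 332 without it. There limma's unadjusted p was 0.0157 for Tgfbr2, 0.0415 for Tgfbr1 and 0.042 for Lrrc32, with adjusted p of 0.24, 0.309 and 0.31. Tgfb1 turned sign with median-of-ratios scaling (-0.039), upper-quartile scaling (-0.029) and base composition correction without and with the block (-0.069 in both). Its cause was not tested. With 1 library left out the log2 fold change ran from -0.083 to 0.099 for Tgfb1, -0.038 to 0.36 for Tgfbr1, -0.36 to -0.14 for Tgfbr2, -0.21 to 0.13 for Smad2, 0.017 to 0.17 for Smad3, -0.15 to -0.041 for Smad4, -0.081 to 0.060 for Smad7, -0.13 to 0.095 for Ski, -0.061 to 0.18 for Skil and 0.015 to 0.30 for Lrrc32. Among the other tested genes named, markers of other cell types aside, the sign turned within -0.49 to 0.064 for Acvr2a, -0.072 to 0.23 for Bmp7, -0.057 to 0.22 for Daxx, -0.039 to 0.29 for Furin, -0.096 to 0.21 for Itgb1, -0.039 to 0.26 for Pcsk7, -0.40 to 0.069 for Usp9x, -0.45 to 0.028 for Wwp1, -0.34 to 0.038 for Zfyve16, -0.26 to 0.098 for Foxp3, -0.059 to 0.42 for Il2ra, -0.11 to 0.21 for Ikzf2, -0.13 to 0.11 for Pmepa1, -0.16 to 0.053 for Ldlrad4, -0.13 to 0.094 for Itgav and -0.041 to 0.10 for Nrros. Nrros also turned with median-of-ratios (-0.014) and upper-quartile scaling (-0.0044) and with base composition correction without and with the block (-0.014 in both). A fit without 1 library assumes that the lone library of a group varies like the other group.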
